A study of Mus musculus with 16 samples.

Results

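The 10 genes described here, all known to be activated by p53, were followed in heart RNA of mice with a disrupted Cap2, the gene of an actin-binding protein. The genes are Cdkn1a, Mdm2, Ccng1, Eda2r, Phlda3, Bax, Bbc3, Trp53inp1, Aen and Zmat3, taken by symbol as well-known targets of the pathway. They are 10 of the 38087 gene rows of experiment A and 10 of the 54232 of experiment B, and all 10 passed the filter on low values in both. The question is whether hearts in which Cre recombinase was expressed carried more of these transcripts, because prolonged Cre activity in heart muscle cells is known as a possible source of DNA damage.

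Experiment B compared hearts of 13-week-old C57BL/6 mice, all homozygous for the loxP allele of Cap2. Of the libraries, 4 are from mice with Myh6-Cre (here Cre+, genotype Loxp/Loxp, Cre+; 3 female and 1 male) and 5 from mice without it (Cre-, genotype Loxp/Loxp,Cre-; 3 female and 2 male). The Myh6 promoter drives Cre in cardiomyocytes, so other heart cells keep Cap2. Experiment A compared 86-week-old C57BL/6 females, 3 with both copies of Cap2 disrupted (CAP2-/-) and 3 wild type (WT), and its labels name no Cre. No Cre+ mice without the loxP allele and no WT mice with Cre were analysed here, so within experiment B the presence of Cre and the loss of Cap2 cannot be told apart. The experiments also differ in age, sex and library kit, and their tables were normalized separately, so differences between them were not tested.

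p53 is a transcription factor that is degraded in unstressed cells through MDM2 and accumulates when DNA is broken or the cell is otherwise stressed. It then switches on genes that stop the cell cycle, promote apoptosis, and limit p53 itself, the last chiefly through Mdm2. In adult cardiomyocytes, which rarely divide, the same programme is studied in heart failure and in cardiac toxicity. The transcript of Trp53, the gene of p53, need not change when the protein accumulates, which is why targets are read instead.

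p53 binds pairs of a consensus decamer, and these were looked for in the RefSeq promoter windows (GRCm38.p6), which run from 250 bases before to 50 bases after each start. The decamer reads the same on both strands. Windows were found for 8 of the 10 genes, 12 windows in all, with none for Trp53inp1 and Zmat3. A full site was taken as 2 decamers with at most 1 base between them and at most 3 mismatches in all outside the fixed C and G of each core, a limit set after the matches were seen. Such a match lay in windows of 5 of the 8 genes, against 3.27% of the 27025 genes with windows. The matches are shown, with the 2 decamers in capitals, because the comparison turns on genes that p53 acts on:
Cdkn1a: tcagGAACATGTCTTGACATGTTCagcc
Ccng1: ggccAGACCTGCCCGGGCAAGCCTtggc
Bax: tcccAGGCAAGCTTtGAACTTGCGGcaat
Bbc3: ccgaCTGCAAGCCCCGACTTGTCCccag
Aen: agccGGGCTTGTCCGGGCAAGGAGcttc
The printed bases lie at chr17:29090924-29090951 (plus strand) for Cdkn1a, chr11:40755458-40755485 (minus) for Ccng1, chr7:45467075-45467103 (minus) for Bax, chr7:16309482-16309509 (plus) for Bbc3 and chr7:78895933-78895960 (plus) for Aen. The Cdkn1a and Ccng1 sites had 1 mismatch each, the Bax site 2, and the Bbc3 and Aen sites 3 each. The first capital stands at -51 from the upstream Cdkn1a start, -195 from the Ccng1 start, -201 from the Bax start and -97 from the Bbc3 start. The Aen site lies within both of that gene's windows. The other Cdkn1a window, 29093519 to 29093818, held neither a full site nor a single decamer. In experiment A the transcript from the upstream Cdkn1a start took 0.1413% to 1.644% of the gene. The one that starts 2793 bases downstream took 75.42% to 87.93%. The Mdm2 window held a single decamer without a full site, and the Eda2r and Phlda3 windows held neither, which says nothing of sites elsewhere, such as the p53-responsive promoter within the first intron of Mdm2. Because the genes are known targets, these matches are a description and not a result.

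Library totals were 10750175 to 27440478 estimated counts in experiment A and 5215836 to 12509520 normalized counts in experiment B. Transcripts of the mitochondrial genome took 22.97% to 52.69% of those totals in Cre+ and 30.36% to 69.5% in Cre-. Cap2 checked the labels. It averaged 65.0 ± 24.2 normalized counts in Cre+ and 390.6 ± 288.2 in Cre- (SD, n = 4 and 5), a log2 fold change of -2.22 (SE 0.36, limma adjusted p = 0.0161), and 12.2 ± 3.89 CPM in CAP2-/- and 214 ± 15.7 CPM in WT (SD, n = 3 each; log2 -4.13, SE 0.20, edgeR adjusted p = 1.00e-07). The Cap2 call in experiment B was lost without Cre- replicate 1 (adjusted p = 0.0687) or Cre+ replicate 4 (adjusted p = 0.0922).

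Some libraries of experiment B stood apart. Cre- replicate 4 was the highest of its 5 libraries for 4 of the 10 genes (Mdm2, Ccng1, Eda2r and Aen). It was the lowest for another 4 (Cdkn1a, Phlda3, Bax and Bbc3), so some results below are also given without it. Without it the log2 fold changes of Mdm2, Aen and Eda2r were -0.015, -0.26 and -0.56. With all 9 libraries they were -0.087, -0.38 and -0.75. Cre+ replicate 4 was the lowest of its 4 libraries for 8 of the 10. It is also the only male of Cre+. With sex as a term, a fit without it therefore takes its Cre+ against Cre- estimate from the females alone. That fit and the one of females alone share their fold changes and differ in their tests. Cardiomyocyte markers were plentiful in every library, with summed levels over 6 genes of 173643 to 257012 in Cre+ and 206394 to 324090 in Cre-. The summed atrial markers (Sln, Myl4, Myl7, Bmp10 and the stress-responsive Nppa) did not overlap, at 83710 to 174834 in Cre+ and 27 to 9143 in Cre-, and none of the 5 passed the test with all libraries. Nppa (log2 7.62, limma adjusted p = 0.0742) passed under 6 of the 19 alternatives, among them without Cre- replicate 4 (6.12, adjusted p = 3.47e-06), and Sln, Myl4 and Myl7 passed without Cre+ replicate 1 (adjusted p = 0.0318, 0.0195 and 0.0342). Fibroblast markers summed to 6707 to 14670 in Cre+ and 2339 to 9404 in Cre-, and macrophage markers to 1093 to 2492 in Cre+ and 453 to 1425 in Cre-, with none of the 5 genes called in either list, though Col1a1 passed without Cre+ replicate 1 (log2 2.73, adjusted p = 0.0470) or Cre- replicate 5 (2.79, adjusted p = 0.0168). Smooth muscle and pericyte markers summed to 3187 to 5142 in Cre+ and 3820 to 8364 in Cre-, and 1 of the 5, Abcc9, fell (log2 -1.63, limma adjusted p = 0.0477), a call kept under 9 of the 19 alternatives. The part of these cells in the results below was not tested, and in whole-heart RNA fewer cells of a type and less RNA per cell cannot be told apart.

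In Cre+ hearts 1 of the 10 p53 targets rose, where 0.947% of all genes tested did, none fell, and the other 9 did not pass the test. Phlda3 was the gene that rose, with 3.51 times the level of Cre- hearts. Of the 10, 6 had a log2 fold change above 0 and 4 below. Cdkn1a, Zmat3 and Bax were among the 6, with log2 fold changes of 1.99, 0.77 and 0.68 that did not pass. Mdm2 and Ccng1 were among the 4, with fold changes of 0.941 and 0.743 that did not pass. The threshold was an adjusted p under 0.05 over all 12141 genes tested, which 1.88% of them passed, 115 higher and 113 lower in Cre+. That split depends on scaling, at 151 higher and 67 lower with TMM and 211 higher and 124 lower with quantile normalization, and at 108 higher and 137 lower with scaling to nuclear genes. A count of 1 in 10 is too small to set against that share. Fold changes of experiment B are on the log2(value + 1) scale, which understates those of low genes, and the 95% intervals below are not adjusted for the number of genes.

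**Figure D1:**
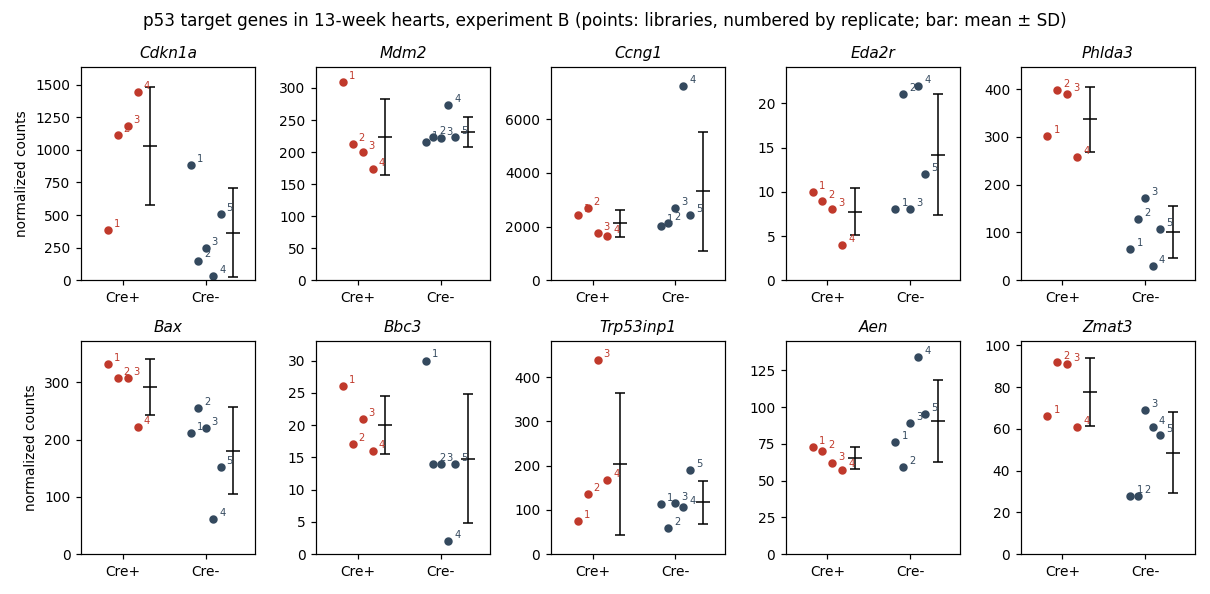
Normalized counts of the 10 p53 target genes in the 4 Cre+ and 5 Cre- hearts of experiment B, 1 panel a gene on its own linear axis from 0; points are libraries numbered by replicate and bars are mean ± SD. Phlda3 is the gene whose groups do not overlap, and Cre- replicate 4 is the highest Cre- point for Mdm2, Ccng1, Eda2r and Aen.

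Phlda3 (ENSMUSG00000041801, chromosome 1, 135766119 to 135769136, plus strand, mm10) encodes a small pleckstrin-homology protein that competes with Akt for membrane lipids and so restrains survival signalling. It had 302, 398, 390 and 257 normalized counts in Cre+ replicates 1 to 4, and 66, 129, 172, 30 and 107 in Cre- replicates 1 to 5. Every Cre+ library was above every Cre- library, an ordering in the higher direction found in 3.87% of the genes tested. The means were 336.8 ± 68.7 in Cre+ and 100.8 ± 55.1 in Cre- (SD, n = 4 and 5), and the log2 fold change was 1.81 (SE 0.38, 95% interval 0.97 to 2.65, limma adjusted p = 0.0418). It was lost when the mitochondrial share was added as a term (2.10, adjusted p = 0.109), and without Cre- replicate 1 (adjusted p = 0.120), 2 (0.0965) or 3 (0.0515) or Cre+ replicate 2 (0.122), 3 (0.126) or 4 (0.186). It held without Cre- replicate 4 (1.56, adjusted p = 0.0163) and among females alone (1.66, adjusted p = 0.0420). The fit without Cre+ replicate 4 had the same estimate as females alone. Over all 19 alternatives the fold change ran between 1.56 and 2.10 on the log2 scale.

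Cdkn1a (ENSMUSG00000023067, chromosome 17, 29090976 to 29100727, plus strand) encodes p21, which inhibits cyclin-dependent kinases and is the classic arrest gene of p53. It had 385, 1111, 1179 and 1439 normalized counts in Cre+ replicates 1 to 4, and 884, 151, 247, 30 and 509 in Cre- replicates 1 to 5. In all, 3 of the 4 Cre+ libraries exceeded every Cre- library, while Cre+ replicate 1 lay below Cre- replicates 1 and 5. The means were 1028.5 ± 451.7 in Cre+ and 364.2 ± 339.9 in Cre- (SD, n = 4 and 5). The fold change was the largest of the 10 at 3.97 (95% interval 1.10 to 14.3; log2 1.99, SE 0.84), but it did not pass the test (limma adjusted p = 0.200). Cre- replicate 4, with 30 counts, moved it most among the Cre- libraries, to log2 1.36 without that library (adjusted p = 0.178). The log2 fold change was 1.31 both without Cre+ replicate 4 (adjusted p = 0.624) and in females alone (adjusted p = 0.306). Cdkn1a was not called under any of the 19 alternatives, whose adjusted p ran between 0.103 and 0.624. A gene on the opposite strand, AC167363.2, overlaps its exons, and whether the counting used strand is not stated.

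**Figure D2:**
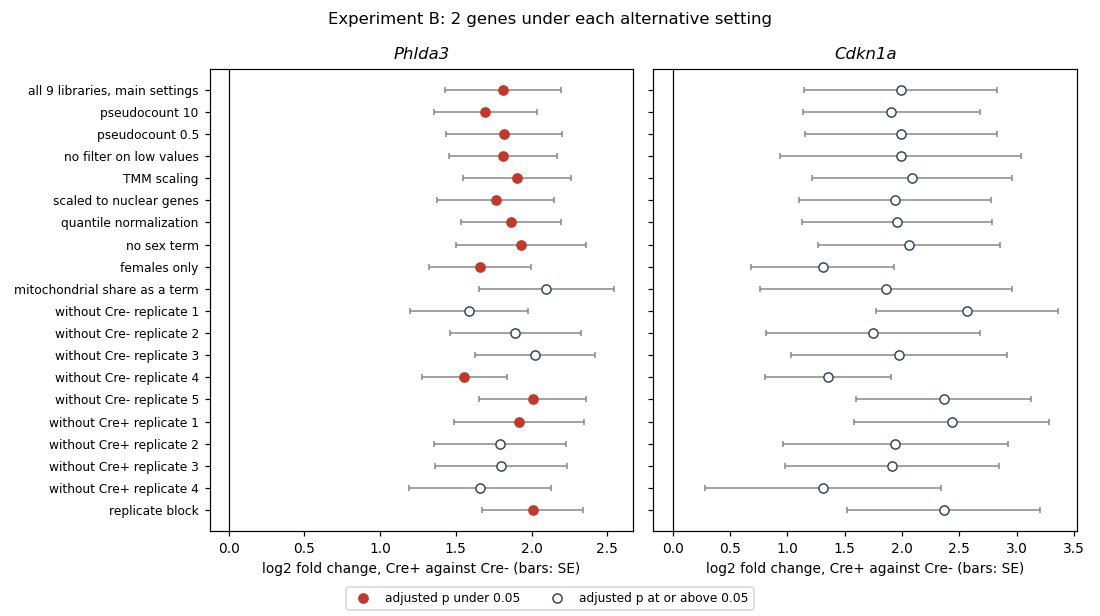
Log2 fold changes of Phlda3 and Cdkn1a in Cre+ against Cre- hearts with all 9 libraries and under each of the 19 alternatives; points are estimates, bars are SE, and filled points passed an adjusted p of 0.05. Phlda3 passed under 12 of the 19 alternatives and Cdkn1a under 0, and all estimates of both genes are above 0.

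The other cell-cycle member, Ccng1 (ENSMUSG00000020326, chromosome 11, 40748552 to 40755311, minus strand), encodes cyclin G1, which recruits a phosphatase to MDM2. It had 2416, 2675, 1758 and 1632 normalized counts in Cre+ replicates 1 to 4, and 2038, 2140, 2700, 7238 and 2418 in Cre- replicates 1 to 5. No Cre+ library exceeded the highest Cre- library, and the spread of Cre- came chiefly from replicate 4. The log2 fold change was -0.43 (SE 0.37, 95% interval -1.24 to 0.38, limma adjusted p = 0.511). It was -0.15 without that library, and -0.017 both without Cre+ replicate 4 and in females alone. Per kilobase of exon, Ccng1 was the most abundant of the 10 in both groups, at 604 normalized counts in Cre+ and 942 in Cre-, against 290 and 103 for Cdkn1a and 216 and 64.7 for Phlda3.

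Mdm2 (ENSMUSG00000020184, chromosome 10, 117688875 to 117710758, minus strand) encodes the ubiquitin ligase that marks p53 for degradation, and its induction closes the feedback loop. It had 309, 213, 200 and 173 normalized counts in Cre+ replicates 1 to 4, and 215, 223, 222, 274 and 223 in Cre- replicates 1 to 5. Of the 4 Cre+ libraries, 3 lay below the whole Cre- range and Cre+ replicate 1 above it. The log2 fold change was -0.087 (SE 0.22, limma adjusted p = 0.835), and the 95% interval of the fold, 0.674 to 1.32, leaves room for modest differences either way. Its sign was positive with TMM scaling (0.0088), with quantile normalization (0.021) and among females alone (0.10).

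The 4 members that act in apoptosis did not pass the test. Bax (ENSMUSG00000003873, chromosome 7, 45461697 to 45466898, minus strand) encodes the effector that opens the outer mitochondrial membrane, and had 332, 307, 307 and 222 normalized counts in Cre+ replicates 1 to 4, and 212, 256, 221, 62 and 153 in Cre- replicates 1 to 5. All Cre+ libraries but replicate 4 were above all of Cre-. The log2 fold change was 0.68 (SE 0.28, 95% interval 0.075 to 1.29, limma adjusted p = 0.186), and 0.48 without Cre- replicate 4 (adjusted p = 0.123). Gm45808 shares exonic bases with Bax on the same strand, so its count is uncertain.

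Bbc3 (ENSMUSG00000002083, chromosome 7, 16308393 to 16318205, plus strand) encodes PUMA, which frees BAX from its inhibitors. It had 26, 17, 21 and 16 normalized counts in Cre+ replicates 1 to 4, and 30, 14, 14, 2 and 14 in Cre- replicates 1 to 5. The highest library was Cre- replicate 1 and the lowest Cre- replicate 4. The log2 fold change was 0.56 (SE 0.53, limma adjusted p = 0.553), and 0.20 without Cre- replicate 4. Aen, a nuclease of apoptosis, and Eda2r, a receptor of the tumour necrosis factor family, were both lower on average in Cre+ without passing. Aen (ENSMUSG00000030609, chromosome 7, 78895854 to 78911209, plus strand) had 73, 70, 62 and 57 normalized counts in Cre+ replicates 1 to 4, and 76, 59, 89, 134 and 95 in Cre- replicates 1 to 5 (log2 -0.38, SE 0.26, limma adjusted p = 0.404). Eda2r (ENSMUSG00000034457, chromosome X, 97333840 to 97377216, minus strand) had 10, 9, 8 and 4 normalized counts in Cre+ replicates 1 to 4, and 8, 21, 8, 22 and 12 in Cre- replicates 1 to 5 (log2 -0.75, SE 0.50, limma adjusted p = 0.392). The groups of both genes overlapped, and at these low values Eda2r gives a wide 95% interval of the fold, 0.280 to 1.27. Without Cre+ replicate 4, and equally in females alone, the log2 fold changes were 0.46 for Bax, 0.21 for Bbc3, -0.11 for Aen and -0.28 for Eda2r.

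The last 2 members have other roles. Trp53inp1 (ENSMUSG00000028211, chromosome 4, 11156431 to 11174379, plus strand), whose stress-induced protein binds p53 and also acts in autophagy, had 75, 135 and 438 normalized counts in Cre+ replicates 1 to 3 and a value between the last 2 of these in replicate 4 (median of the group 151.5), and 113, 58, 115, 107 and 191 in Cre- replicates 1 to 5. Cre+ replicate 3, with the 438, was far above the other 8, and the log2 fold change of 0.66 (SE 0.46) did not pass the test (limma adjusted p = 0.417). It was 0.17 without Cre+ replicate 3 and 0.17 with the mitochondrial share as a term. Zmat3 (ENSMUSG00000027663, chromosome 3, 32334792 to 32366014, minus strand), an RNA-binding zinc-finger protein, had 66, 92, 91 and 61 normalized counts in Cre+ replicates 1 to 4, and 28, 28, 69, 61 and 57 in Cre- replicates 1 to 5. Cre+ replicates 2 and 3 were above all of Cre-, and the others lay within its range. The log2 fold change was 0.77 (SE 0.34, 95% interval 0.030 to 1.52, limma adjusted p = 0.210).

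Across the 10, the median log2 fold change in Cre+ was 0.61, with 6 above 0 and 4 below, beside -0.12 over all genes tested. Single libraries moved that median, to 0.34 without Cre- replicate 4 and 0.39 without Cre+ replicate 3. It was 0.33 without Cre+ replicate 4, a fit whose estimates are those of females alone. Without adjustment, 4 of the 10 (Phlda3, Cdkn1a, Bax and Zmat3) had p under 0.05, all higher in Cre+, where 7.89% of all genes tested had such a p in that direction. The list was not tested as a whole. With the mitochondrial share as a term the median of the 10 was 0.46, beside -0.063 over all genes. The part of the atrial, fibroblast, macrophage and smooth muscle markers given above in these values was not tested.

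Experiment A, in which the labels name no Cre, gave no call among the 10. By edgeR 0 of 10 passed an adjusted p of 0.05, against 1.35% of the 16297 genes tested, while 2 of 10 had an unadjusted p under 0.05 (10.4% of all genes) and 2 of 10 passed with DESeq2 (2.47% of the genes it gave an adjusted p). The 2 are the same genes in each case, Cdkn1a, which was lower in CAP2-/- hearts, and Phlda3, which was higher. The median log2 fold change of the 10 was 0.024, with 6 above 0 and 4 below, beside 0.0057 over all genes. The groups did not overlap for 2 of the 10, again these, and for 15.6% of all genes tested.

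Summed markers of some other cells stood apart between these groups too. The atrial markers summed to 3822 to 4563 CPM in CAP2-/- and 81.1 to 123.5 CPM in WT, of which Nppa, the 1 of 4 tested that was called, rose (log2 5.48, edgeR adjusted p = 3.07e-10), while Sln averaged 0.0212 CPM in CAP2-/- and 0.0614 CPM in WT and Myl7 1.35 CPM in CAP2-/- and 1.24 CPM in WT. Bmp10 passed with DESeq2, with no filter and without WT replicate 1 (adjusted p = 0.00819, 0.000337 and 0.0124). Fibroblast markers summed to 756.3 to 949.8 CPM in CAP2-/- and 593.3 to 704.2 CPM in WT without overlap, with 0 of 5 called. Most of that difference was in Dcn, at a mean of 654.2 CPM in CAP2-/- and 466.6 CPM in WT. The log2 fold changes were 0.49 for Dcn, 0.13 for Lum, 0.041 for Tcf21, -0.0080 for Col1a1 and -0.12 for Pdgfra. Summed fat cell markers did not overlap either, at 446.4 to 610.1 CPM in CAP2-/- and 402.9 to 436.3 CPM in WT, with 0 of the 2 tested called. Fabp4 made up most of that sum, at a mean of 530.5 CPM in CAP2-/- and 422.1 CPM in WT. Adipoq, Plin1, Cidec and Lep were all lower on average in CAP2-/-, Cidec at 0.386 CPM against 1.55 CPM in WT. Erythroid markers were 19250 CPM in CAP2-/- replicate 1, 4113 and 2506 CPM in CAP2-/- replicates 2 and 3, and 4360 to 7893 CPM in WT, with 0 of 5 called. The part of these cells in the Cdkn1a and Phlda3 values below was not tested.

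**Figure D3:**
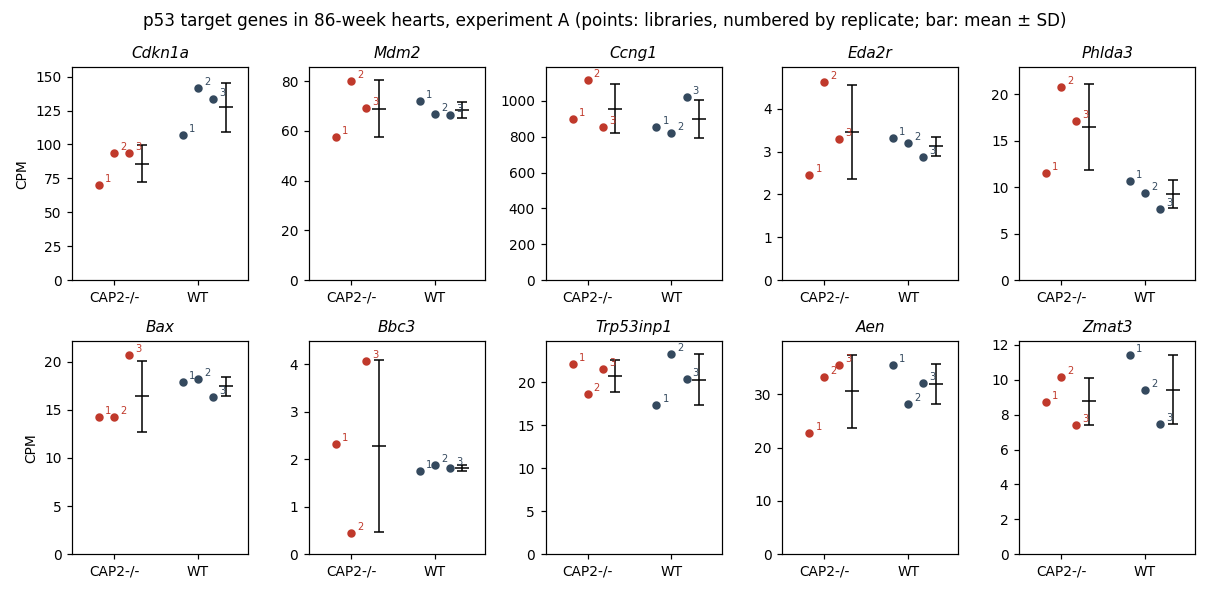
CPM of the 10 p53 target genes in the 3 CAP2-/- and 3 WT hearts of experiment A, 1 panel a gene on its own linear axis from 0; points are libraries numbered by replicate and bars are mean ± SD. Cdkn1a is lower and Phlda3 higher in all CAP2-/- libraries than in any WT library, and the other 8 genes overlap.

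Cdkn1a had 70.42, 93.72 and 93.80 CPM in CAP2-/- replicates 1 to 3, and 107.0, 141.6 and 133.6 CPM in WT replicates 1 to 3. All CAP2-/- libraries were below all WT libraries. The means were 86.0 ± 13.5 CPM in CAP2-/- and 127 ± 18.1 CPM in WT (SD, n = 3 each), a log2 fold change of -0.56 (SE 0.14, 95% interval -0.87 to -0.26) that missed the threshold (edgeR adjusted p = 0.0646). It passed with the library total alone (adjusted p = 0.0468), with DESeq2 (0.0180), with no filter on low counts (0.00117) and without WT replicate 1 (0.0315), in a range over 11 alternatives of 0.00117 to 0.211. The authors' deposited table gives -0.57 with an adjusted p of 0.0161, a call that 2.61% of its 17250 genes with an adjusted p share. Its last exon (chromosome 17, 29099344 to 29100722) had 39.07, 66.53 and 64.18 CPM in CAP2-/- and 69.77, 96.85 and 92.35 CPM in WT without overlap, and its exon at 29093772 to 29093861 had 2.719, 2.217 and 3.624 CPM in CAP2-/- and 2.29, 2.575 and 4.289 CPM in WT, which overlapped.

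Phlda3 had 11.57, 20.77 and 17.13 CPM in CAP2-/- replicates 1 to 3, and 10.72, 9.396 and 7.677 CPM in WT replicates 1 to 3. The groups did not overlap, but CAP2-/- replicate 1 lay close to WT replicate 1. The log2 fold change was 0.83 (SE 0.22, 95% interval 0.37 to 1.30), or 1.78-fold, and missed the threshold (edgeR adjusted p = 0.0785). It passed with DESeq2 (adjusted p = 0.0265), with no filter (0.00624) and without CAP2-/- replicate 1 (0.0133), within 0.00624 to 0.371 over the 11 alternatives. The authors' deposited table gives 0.83 with an adjusted p of 0.0213. Phlda3 was thus above its control mean in all 7 libraries of CAP2-/- and Cre+ hearts, though it passed the test only in experiment B.

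The other 8 genes did not pass, with adjusted p of 0.883 to 0.990 by edgeR and 0.937 to 0.997 in the authors' deposited table. Mdm2 had 57.39, 80.19 and 69.08 CPM in CAP2-/- and 71.94, 66.68 and 66.37 CPM in WT, and the 95% interval of its fold was 0.830 to 1.22. Its CAP2-/- libraries lay on both sides of WT. Ccng1 had 898.5, 1114 and 856.6 CPM in CAP2-/- and 855.4, 822.8 and 1019 CPM in WT, with a log2 fold change of 0.089 (SE 0.13, 95% interval -0.18 to 0.36), and was the most abundant per kilobase here too, at 272 CPM in CAP2-/- and 256 CPM in WT. Bax had 14.30, 14.25 and 20.67 CPM in CAP2-/- and 17.85, 18.17 and 16.34 CPM in WT, and its log2 fold change was -0.083 (SE 0.18). Only CAP2-/- replicate 3 was above WT.

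Trp53inp1 had 22.12, 18.69 and 21.56 CPM in CAP2-/- and 17.34, 23.27 and 20.43 CPM in WT (log2 0.036, SE 0.16). Aen had 22.83, 33.30 and 35.53 CPM in CAP2-/- and 35.55, 28.16 and 32.06 CPM in WT (log2 -0.063, SE 0.17). Zmat3 had 8.731, 10.13 and 7.424 CPM in CAP2-/- and 11.42, 9.416 and 7.463 CPM in WT (log2 -0.11, SE 0.22). The groups of all 3 genes overlapped, and each fold change was smaller than its SE. Bbc3 had 2.317, 0.449 and 4.064 CPM in CAP2-/- and 1.748, 1.874 and 1.815 CPM in WT, with the CAP2-/- libraries spread on both sides of a narrow WT range. Eda2r had 2.443, 4.613 and 3.292 CPM in CAP2-/- and 3.309, 3.191 and 2.866 CPM in WT, again with overlap. Bbc3 rested on only 6.279 to 63.9 estimated counts a library and Eda2r on 26.96 to 91.81, and their log2 fold changes were the least precise of the 10, at 0.36 (SE 0.56, 95% interval -0.86 to 1.58) and 0.15 (SE 0.31, 95% interval -0.52 to 0.82).

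**Figure D4:**
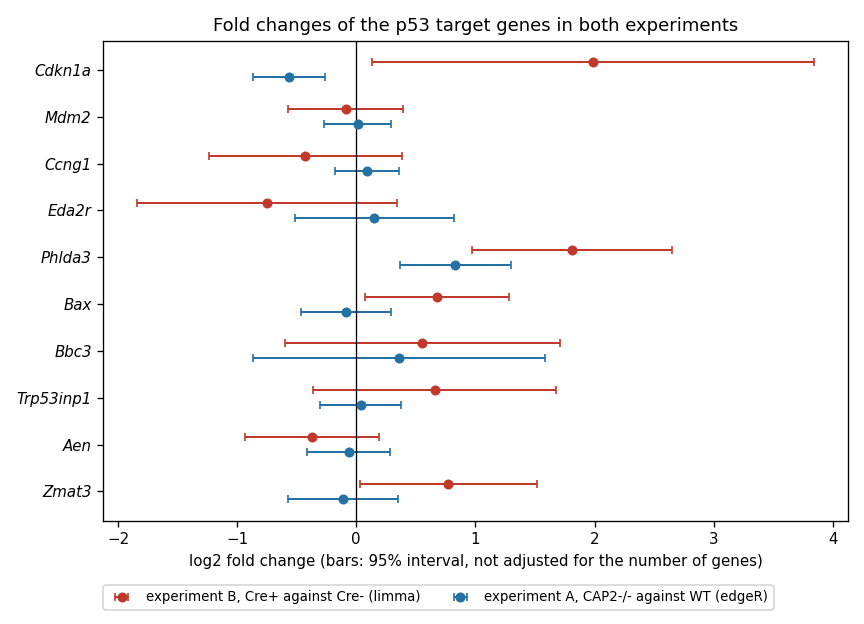
Log2 fold changes of the 10 genes in Cre+ against Cre- hearts (experiment B, limma) and in CAP2-/- against WT hearts (experiment A, edgeR), with 95% intervals not adjusted for the number of genes. The interval of Phlda3 lies above 0 in both experiments, and that of Cdkn1a above 0 in B and below 0 in A. Those of Bax and Zmat3 lie above 0 in B and include 0 in A, and those of the other genes include 0 in both.

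Cdkn1a was the one member of the 10 with every Cre+ library above the Cre- mean and every CAP2-/- library below the WT mean, at log2 1.99 in Cre+ and -0.56 in CAP2-/-, neither of which passed its test. The difference was not tested.

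Regulators of p53 showed no call in either experiment. Trp53 itself had 109, 55, 108 and 72 normalized counts in Cre+ replicates 1 to 4, and 68, 85, 111, 59 and 80 in Cre- replicates 1 to 5. The groups overlapped almost wholly (log2 0.024, SE 0.28, limma adjusted p = 0.966), and in CAP2-/- the log2 fold change was 0.052 (SE 0.21, edgeR adjusted p = 0.963). Mdm4, whose product restrains p53 beside MDM2, had between 153 and 766 normalized counts in Cre+ (median 171.5) and between 100 and 796 in Cre- (median 547), with the highest Cre+ value in replicate 1 and the lowest Cre- value in replicate 4 (log2 -0.94, SE 0.48, limma adjusted p = 0.271). Over all genes tested the median log2 fold change was -0.12 in experiment B, with 5033 genes above 0 and 7108 below, and 0.0057 in experiment A. Of 12 regulators 10 were tested in experiment B, 2 with a log2 fold change above 0 and 8 below, at a median of -0.37, and 11 in experiment A at a median of -0.014. Among them the damage-sensing kinases Atm (-1.96, SE 0.79, limma adjusted p = 0.186) and Atr (-0.80, SE 0.26, adjusted p = 0.127) had the smallest p in experiment B. Atm was low, with 22, 2, 3 and 3 normalized counts in Cre+ replicates 1 to 4. Its Cre- replicates 1 to 5 had 19, 8, 32, 89 and 11. Over the 19 alternatives its log2 fold change ran between -2.62 and -1.05. Atr passed there without Cre+ replicate 1 (-1.04, adjusted p = 0.0300).

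Of all genes tested, 0.947% rose in experiment B, and 83 of 16297 fell in experiment A. Of 28 other p53 targets, 24 were tested in experiment B, where 1 rose and none fell, and 28 in experiment A, where none rose and 1 fell. Their median log2 fold changes were 0.023 in experiment B and -0.017 in experiment A, beside -0.12 and 0.0057 over all genes tested. Gdf15, a secreted stress cytokine that other stress pathways also induce, was the one that rose. It had 101, 316, 50 and 100 normalized counts in Cre+ replicates 1 to 4, and 14, 11, 4, 0 and 11 in Cre- replicates 1 to 5. The groups did not overlap, an ordering in the higher direction found in 3.87% of the genes tested. For Gdf15 the log2 fold change was 4.00 (SE 0.76, limma adjusted p = 0.0280). Its call was lost with the mitochondrial share as a term (adjusted p = 0.125), without Cre- replicate 1 (0.0696), 2 (0.0670) or 3 (0.0653) and without Cre+ replicate 2 (0.109) or 4 (0.156). In CAP2-/- it had 2.537, 3.851 and 8.331 CPM against 2.883, 1.106 and 1.932 CPM in WT (log2 1.27, SE 0.44, edgeR adjusted p = 0.282), and passed there with no filter on low counts (adjusted p = 0.0184).

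Dglucy, a mitochondrial D-glutamate cyclase gene, was the one that fell in CAP2-/-, with 63.01, 73.82 and 65.28 CPM against 92.76, 92.48 and 110.8 CPM in WT (log2 -0.55, SE 0.12, edgeR adjusted p = 0.0336). The call was lost without any 1 of CAP2-/- replicates 1 to 3 (adjusted p = 0.0760, 0.0578 and 0.159), and without WT replicate 1 (0.0509) or 3 (0.171). In Cre+ it had 90, 87, 79 and 67 normalized counts, against 204, 130, 125, 414 and 157 in Cre- (log2 -1.14, SE 0.33, limma adjusted p = 0.0960). Perp, a membrane protein of cell junctions and apoptosis, had 652, 910, 1059 and 1016 normalized counts in Cre+ and 541, 354, 524, 701 and 597 in Cre- (log2 0.81, limma adjusted p = 0.0938), and 185.0, 152.4 and 161.8 CPM in CAP2-/- against 107.3, 140.8 and 110.8 CPM in WT (log2 0.48, edgeR adjusted p = 0.0951). It missed the threshold in both, though its groups did not overlap in experiment A, as for 15.6% of all genes tested there. There it passed with DESeq2 (adjusted p = 0.0386), with no filter on low counts (0.0262) and without WT replicate 2 (log2 0.61, adjusted p = 0.0357).

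Genes of DNA damage sensing and repair gave no call. Of 16 in the list, 12 were tested in experiment B, 1 with a log2 fold change above 0 and 11 below, at a median of -0.41. In experiment A 14 were tested, 6 above and 8 below, at a median of -0.047. H2ax was not found under that symbol in either experiment, so its level was not examined. Over all genes tested the medians were -0.12 in experiment B, with 5033 above 0 and 7108 below, and 0.0057 in experiment A. The one of experiment B depends on scaling, at -0.021 with TMM and -0.16 with scaling to nuclear genes. Within the list, the smallest p in experiment B belonged to Parp1, which binds DNA strand breaks. It had between 102 and 147 normalized counts in Cre+ (median 116.5) and between 151 and 326 in Cre- (median 184), and did not pass the test (log2 -0.70, SE 0.26, limma adjusted p = 0.161). Prkdc, the catalytic subunit of DNA-dependent protein kinase, had a log2 fold change of -0.69 there (adjusted p = 0.228), and the repair scaffold Xrcc1 one of -0.47 in CAP2-/- (edgeR adjusted p = 0.186).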

How the data were processed

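In experiment A the values are estimated counts of reads in each gene, which the authors deposited from Ion Total RNA-Seq libraries, and the authors' deposited comparison holds a mean normalized signal, test-statistic scores, log2 fold changes and p-values. In experiment B (stranded TruSeq libraries) the values are whole-number read counts after a normalization that is not stated, which the authors deposited and which are treated here as a score. Their depth is unknown, since they cannot be turned back into reads. The submitters' processing notes list STAR 2.6.0c, DESeq and mm10 without saying what each was used for. For the counting tool, its strand setting and the annotation, the sources used here give nothing. A further Cre+ sample was not analysed here.

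Estimated counts were rounded to whole numbers. The edgeR test (version 4.0.16, R 4.3.3) used TMM, filterByExpr and the robust quasi-likelihood fit; the SE is the size of the log2 fold change divided by the square root of F. CPM are TMM-scaled. For experiment B, log2(value + 1) of genes with a mean of at least 10 was tested with limma 3.58.1 (robust trend, sex as a term). P-values were adjusted by Benjamini-Hochberg over all genes tested, and an adjusted p under 0.05 is termed called. DESeq2 1.42.0, other scalings, pseudocounts, filters and covariates, a replicate block, and leaving out each library, were alternatives. In experiment B the block covered replicates 1 to 4, so Cre- replicate 5 was left out of it. Code was tested on simulated data. GENCODE M21 gave names and positions, by identifiers of which it holds 36308 of 38087 (A) and 54079 of 54232 (B); RefSeq gave the promoters.

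Named are the 10 members, Cap2, Trp53, Mdm4 and, from each other list, called genes or up to 3 with the smallest p. Members and lists were chosen with earlier results of these data known. The labels number the libraries, and in experiment B give each a sex, but do not state that each is a separate animal; where libraries share one, p-values reflect technical spread. Between replicates of experiment A the chi-square per gene was 11.48 to 31.73, more than sampling noise gives.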

Additional observations from a re-analysis of the deposited data

Results flagged for a closer look

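Of the 62 groups checked, over 31 genes of experiment B, 8 held 1 library far from the rest of its group, where chance gives about 1 in 20. Of these, 4 were in Cre- replicate 4, with the highest Cre- values of Mdm2 (274 normalized counts), Ccng1 (7238), Dglucy (414) and Parp1 (326). A further 3 were in Cre+ replicate 1, with the highest Cre+ values of Mdm4 (766), Atm (22) and Prkdc (73). The last was Bok in Cre+ replicate 3 (211). Cre+ replicate 1 and Cre- replicate 4 also stood at the low end of the summed atrial markers, which were 83710 in Cre+ replicate 1 and 27 in Cre- replicate 4, each the lowest of its group; the mitochondrial share was 52.69% in Cre+ replicate 1, the highest of Cre+, and 30.36% in Cre- replicate 4, the lowest of Cre-. The mitochondrial share was fitted as a term in 1 of the alternatives, and the part of the atrial markers in the gene values was not tested.

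For Cdkn1a, every Cre+ library was above the Cre- mean (log2 1.99) and every CAP2-/- library below the WT mean (log2 -0.56). The difference between the experiments was not tested.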

How the results depend on the processing

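Called genes among all tested numbered 220 in experiment A, and 402 with DESeq2, 512 with no filter and 126 to 275 without 1 library (137 without CAP2-/- replicate 2, 126 without 3, 144 without WT replicate 3); they numbered 228 in experiment B, and 346 with no filter, 36 with the mitochondrial share as a term, 394 with the replicate block and 39 to 695 without 1 library (695, 39, 48 and 57 without Cre+ replicates 1 to 4; 48, 45, 82, 403 and 525 without Cre- replicates 1 to 5). Of the 10 members, 0 were called in experiment A, 1 with the library total alone, 2 with DESeq2, 2 with no filter, 1 with the block and 0 to 1 without 1 library; in experiment B 1 was called, 0 with the mitochondrial term and 0 to 1 without 1 library. Not every same-numbered pair deviated together (r of -0.17, -0.15 and -0.031 in A; 0.24, -0.11, 0.18 and 0.033 in B), and not every library was most like that of its own number, so the numbers are not taken to pair the samples; with the block, Cdkn1a in experiment A was called (adjusted p = 0.0498) and Dglucy was not (0.0906). The block of experiment B left out Cre- replicate 5, and its fold changes of the members equal those without that library. All 10 members kept their direction under all 19 alternatives of experiment B except Mdm2, which kept it under 15. Signs turned, in experiment A, for Mdm2 (log2 -0.032 with the library total, -0.0098 with no filter, -0.0017 with the block), Trp53inp1 (-0.011) and Usp7 (-0.0018) with the library total. In experiment B they turned for Mdm2 (0.0088 with TMM, 0.021 with quantile normalization, 0.10 in females), Trp53 (-0.023 with nuclear scaling), Xrcc1 (0.087 with the mitochondrial term) and Cdkn1c (0.018 with TMM, 0.00034 with quantile normalization, 0.051 without the sex term, 0.23 with the mitochondrial term, 0.16 with the block). Leaving out 1 library turned signs within -0.11 to 0.12 for Mdm2, -0.034 to 0.19 for Ccng1, -0.11 to 0.34 for Eda2r, -0.29 to 0.014 for Bax, -0.40 to 0.86 for Bbc3, -0.072 to 0.14 for Trp53inp1, -0.19 to 0.10 for Aen, -0.26 to 0.064 for Zmat3, -0.090 to 0.22 for Trp53, -0.21 to 0.15 for Mdm4, -0.17 to 0.084 for Atm, -0.00020 to 0.13 for Usp7, -0.21 to 0.061 for Bak1 and -0.17 to 0.25 for Cdkn1b in experiment A, and -0.24 to 0.10 for Mdm2, -0.082 to 0.23 for Trp53 and -0.41 to 0.16 for Cdkn1c in experiment B. The causes were not tested. Low estimated counts limit Bbc3 and Eda2r in experiment A, and the unknown depth limits experiment B.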

Other observations

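Outside the members, 12 BCL-2 family genes were tested in each experiment and none was called. In experiment B 7 had a log2 fold change above 0 and 5 below (median 0.35), and in experiment A 6 and 6 (median -0.0065). Beside this list and those below, the medians over all genes tested were -0.12 in experiment B and 0.0057 in experiment A. Bak1, the partner effector of BAX, had between 114 and 170 normalized counts in Cre+ (median 147) and between 65 and 100 in Cre- (median 91). Its groups did not overlap, an ordering in the higher direction found in 3.87% of the genes tested. Its log2 fold change of 0.70 (SE 0.22) missed the threshold (limma adjusted p = 0.116). The related effector Bok had a log2 fold change of 1.30 (adjusted p = 0.151) and the BH3-only gene Bcl2l11 one of -1.12 (adjusted p = 0.145).

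Of 12 CDK inhibitors, cyclins and partners tested in experiment B, 5 were above 0 and 7 below (median -0.12), and of 13 in experiment A, 7 and 6 (median 0.057), with no call. The p21 relatives Cdkn1b (log2 -0.61 in Cre+, limma adjusted p = 0.199) and Cdkn1c (-0.69 in CAP2-/-, edgeR adjusted p = 0.152, and 0.0126 with no filter on low counts) and the cyclin Ccnd3 (0.63 in Cre+, limma adjusted p = 0.169) had the smallest p. Of the proliferation genes, 9 were tested in experiment B, 7 above 0 and 2 below (median 1.43), and 8 in experiment A, 6 above and 2 below (median 0.29), again with no call. Cdk1, which drives entry into mitosis, had 14, 87, 90 and 21 normalized counts in Cre+ replicates 1 to 4, and 6, 0, 3, 6 and 7 in Cre- replicates 1 to 5. The groups did not overlap, an ordering in the higher direction found in 3.87% of the genes tested. The test was narrowly missed (log2 3.26, SE 0.78, limma adjusted p = 0.0598). It was passed with no filter on low values (adjusted p = 0.0284) and without Cre- replicate 4 (0.0497), Cre- replicate 5 (0.0388) or Cre+ replicate 1 (0.0323). Mki67 had a log2 fold change of 1.52 (adjusted p = 0.102) and passed among females alone (2.12, adjusted p = 0.0480), and Birc5 one of 1.43 (adjusted p = 0.122), passing without Cre+ replicate 1 (adjusted p = 0.0466). Which heart cells carried these transcripts was not tested.

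The deposited transcript shares of experiment A were not tested, and those of Eda2r and Bax did not overlap between the groups. An Eda2r transcript (97337791 to 97377216) took 3.487%, 3.215% and 2.638% in CAP2-/- and 10.25%, 28.24% and 12.67% in WT. Eda2r rested on only 26.96 to 91.81 estimated counts a library. The Bax transcript took 89.98%, 90.43% and 90.59% in CAP2-/- and 87.03%, 87.06% and 89.47% in WT. The groups overlapped for the Mdm2 transcript that follows. The transcript that starts 736 bases downstream of the gene's first start took 13.62%, 26.87% and 34.43% of the gene in CAP2-/- replicates 1 to 3, and 48.97%, 29.59% and 11.84% in WT replicates 1 to 3, so the groups overlapped.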
